A study of Mus musculus with 8 samples.

Results

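The 44 genes described here encode Wnt ligands, their Frizzled, Lrp and Lgr receptors, secreted antagonists and the core of the beta-catenin response in mouse epididymal fat. They were chosen by name: every protein-coding gene whose GENCODE M21 symbol is a Wnt, Fzd, Sfrp or Dkk gene, a Tcf7 family gene, or Lrp5, Lrp6, Lgr4 to Lgr6, Axin1, Axin2, Wif1, Frzb or Ctnnb1. These 44 are part of 24821 genes in the table and comprise 15 ligands, 12 receptors, 3 Lgr receptors, 8 antagonists and 6 intracellular genes. A further 6 genes of that name pattern (Dkk1, Dkk4, Wnt3a, Wnt7a, Wnt8a and Wnt16) were not analysed here.

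Epididymal white adipose tissue, the gonadal fat pad of male mice, was sequenced in 4 samples of wild type mice (WT) and 4 of mice lacking Ccdc92 (KO). The WT mice were littermates of the same age, all mice had a C57BL/6 background, and all were on a high-fat diet for 14 weeks, with 60% of calories from fat and 20% each from protein and carbohydrate. The comparison asks how loss of Ccdc92, which encodes a coiled-coil protein, changes gene expression in this depot. The mice's age in weeks, the deleted part of the gene and the tissues in which it was deleted are not given here, and no label ties each library to its own animal. The p-values therefore reflect only sample-to-sample spread, of which some may be technical.

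Wnt proteins are lipid-modified secreted signals. They bind a Frizzled receptor together with the co-receptor Lrp5 or Lrp6, which stops the Axin-containing destruction complex from degrading beta-catenin, and beta-catenin then acts with Tcf proteins on target genes. Sfrp, Frzb and Wif1 proteins bind Wnts outside the cell, Dkk proteins act on the co-receptors, and Lgr receptors bind R-spondins and strengthen the signal. In fat, canonical Wnt signals such as Wnt10b are known for holding back the conversion of precursor cells to adipocytes, and Sfrp5 is known as a secreted product of adipocytes.

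The libraries held 23681088 to 33817478 recovered reads. Ccdc92 itself was at 54.1 to 105.8 normalized counts in WT and at 4.9 to 9.7 in KO, a log2 fold change of -3.34 (SE 0.33, adjusted p = 0.000383 by limma; two-sided exact permutation p = 0.0286, the smallest that 70 splits can give). All adipocyte markers listed were above 0 in every library. Over all genes tested by limma 20.2% were higher in KO and 21.5% lower (adjusted p under 0.05). That is the background of the marker counts that follow. Of the 12 adipocyte markers 11 were higher in KO, and their summed level ran from 245201 up to 519438 in WT against 1150921 to 1585283 in KO. Of 12 macrophage markers 11 were lower, their sums being 135619 to 302632 (WT) and 41321 to 66013 (KO). Among the other marker lists, 5 of 8 endothelial and 2 of 8 mural cell genes were higher, 2 of 12 fibroblast and progenitor genes were higher and 2 lower, 6 of 8 T cell and 2 of 4 tested Schwann cell genes were lower, and 0 of 8 mesothelial genes passed by limma, edgeR or DESeq2 (also 0 at an unadjusted p under 0.05 by limma). Genes of the epididymis and vas deferens, the ducts next to this fat pad, summed to 57137 to 119709 in WT and to 12.1 to 1250.1 in KO. Of these duct genes, 5 of 7 tested were lower in KO and 8 of 12 stood at 0 in some library. Those 5 passed the filter on low values through their WT libraries, so that share is no support for a direction. The part of any of these cell types in the results below was not tested, and in bulk tissue fewer cells of a type and less RNA per cell cannot be told apart.

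Of the 44 Wnt genes, 37 reached a normalized count of 10 in at least 4 libraries and entered the test. In KO fat 10 rose and 6 fell, so 43.2% passed (adjusted p under 0.05 by limma). Over all 17798 genes tested 41.7% passed, 20.2% higher and 21.5% lower, and among protein-coding genes alone 44.4% passed, so the share of Wnt genes that passed was near that of other genes. The groups did not overlap in 12 of the 37 genes, or 32.4%, against 42.1% of all genes tested. The median log2 fold change of the 37 was 0.06, and that of all genes tested -0.007. The genes that rose were Wnt5b, Wnt9a, Wnt9b, Wnt10b, Wnt11, Fzd4, Lrp5, Sfrp5, Tcf7l1 and Tcf7l2, and those that fell were Wnt4, Fzd5, Fzd7, Frzb, Sfrp1 and Axin1. After quantile normalization 11 rose and 4 fell, and over all genes the split moved from 3592 higher and 3831 lower to 4593 and 3257.

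**Figure D1:**
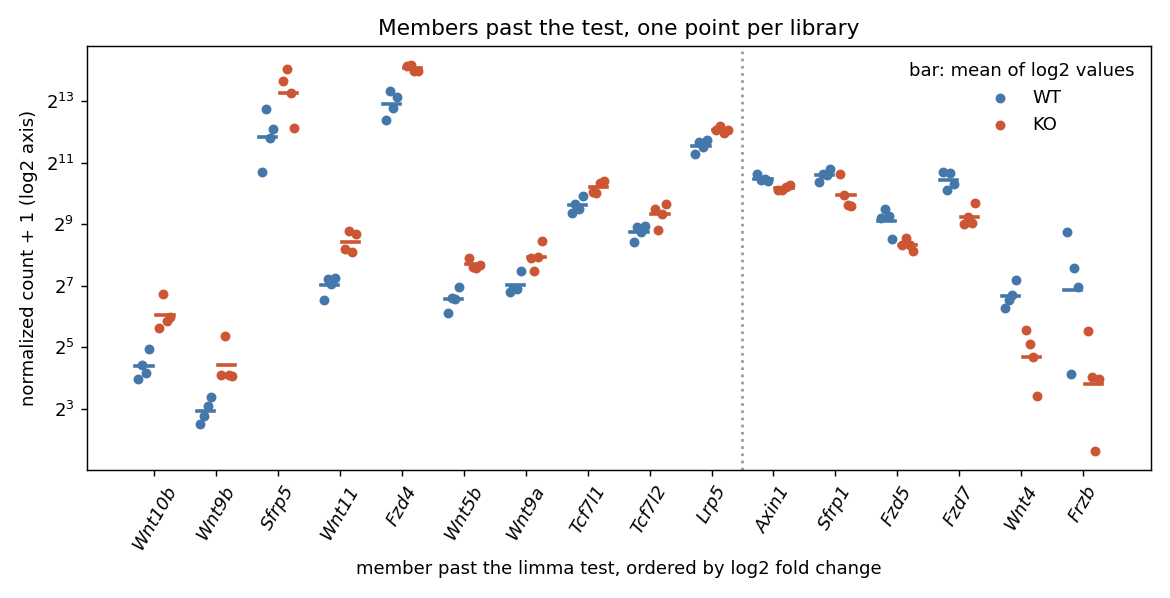
Normalized count + 1 on a log2 axis for the 16 genes past the test, with 1 point per library (WT blue, KO orange) and a bar at the mean of the log2 values. Genes to the left of the dotted line were higher in KO and genes to its right lower; the points of Wnt9a, Sfrp5, Tcf7l2, Fzd5, Sfrp1 and Frzb overlap between groups.

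Among the ligands, 5 of 12 tested rose and 1 fell. Over all genes tested 20.2% were higher and 21.5% lower, which is also the background of the counts by role that follow. Wnt10b, the ligand known for blocking fat cell formation, rose from a low level. It had normalized counts of 14.7, 20.2, 16.7 and 30.0 in WT replicates 1 to 4 and of 48.3, 105.1, 57.0 and 61.9 in KO replicates 1 to 4. Every KO library lay above every WT library, and the means were 20.4 ± 6.78 and 68.0 ± 25.3 (SD, n = 4), a log2 fold change of 1.68 (SE 0.31, adjusted p = 0.00379 by limma). Wnt11, a ligand mainly of the beta-catenin-independent branch, had 90.8, 148.1, 132.7 and 150.7 in WT and 291.9, 433.3, 269.8 and 405.1 in KO. The groups were again apart, with a log2 fold change of 1.41 (SE 0.22, adjusted p = 0.00166 by limma). Wnt5b, a relative of Wnt5a, had 67.9, 95.2, 93.8 and 122.7 in WT and 240.2, 194.8, 189.2 and 201.3 in KO. It rose by 1.14 on the log2 scale (SE 0.19, adjusted p = 0.00225 by limma), and the 4 KO values lay closer together than the 4 WT values on the log2 axis of the plot of called genes.

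The stretches of DNA just before the start sites of these 3 ligands, and of Fzd7, the Frizzled gene that fell most, are shown here because the 3 ligands moved one way and Fzd7 the other. They are RefSeq promoter windows of GRCm38.p6, written 5′ to 3′ on the gene's strand and ending 1 base before the start site. They lie at these places: Wnt10b at chr15:98778151-98778400 (minus strand), Wnt11 at chr7:98834862-98835111 (plus), Wnt5b at chr6:119544348-119544597 (minus) and Fzd7 at chr1:59481897-59482146 (plus). Capitals mark the motifs searched on both strands: the TCF/LEF core (spelled CTTTGAA, with CTTTGAT as its other form), the CCAAT box (spelled CCAAT), the GC box (spelled GGGCGG) and the TATA box (spelled TATAAA), where neighbouring matches can share bases.
Wnt10b: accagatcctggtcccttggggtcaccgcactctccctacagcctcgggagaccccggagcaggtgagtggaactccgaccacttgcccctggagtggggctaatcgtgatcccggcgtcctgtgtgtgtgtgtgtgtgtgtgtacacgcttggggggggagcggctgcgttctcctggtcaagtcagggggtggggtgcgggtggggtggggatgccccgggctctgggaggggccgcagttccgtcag
Wnt11: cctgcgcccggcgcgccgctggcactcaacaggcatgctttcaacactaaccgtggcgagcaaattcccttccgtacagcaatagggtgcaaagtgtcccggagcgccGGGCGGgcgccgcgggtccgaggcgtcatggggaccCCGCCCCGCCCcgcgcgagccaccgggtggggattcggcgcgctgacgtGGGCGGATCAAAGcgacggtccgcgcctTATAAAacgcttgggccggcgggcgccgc
Wnt5b: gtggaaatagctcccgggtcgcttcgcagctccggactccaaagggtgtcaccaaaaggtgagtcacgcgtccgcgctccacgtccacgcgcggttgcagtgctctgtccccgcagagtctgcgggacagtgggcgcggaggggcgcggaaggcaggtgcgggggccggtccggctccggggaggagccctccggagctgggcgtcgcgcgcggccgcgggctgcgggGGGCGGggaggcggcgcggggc
Fzd7: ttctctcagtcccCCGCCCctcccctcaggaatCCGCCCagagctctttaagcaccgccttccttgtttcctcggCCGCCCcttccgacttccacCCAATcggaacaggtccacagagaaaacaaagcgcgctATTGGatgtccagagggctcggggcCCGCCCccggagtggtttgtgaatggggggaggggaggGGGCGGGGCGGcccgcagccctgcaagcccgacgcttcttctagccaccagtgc
The Wnt10b window held none of these motifs. The Wnt11 window held a TCF/LEF core on the minus strand beside a GC box and a TATAAA, Wnt5b held 1 GC box, and Fzd7 held CCAAT on both strands among several GC boxes. The table holds 3 windows of Wnt5b and 2 of Wnt11; of those not shown, 1 of Wnt5b held a TCF/LEF core and a GC box, and the others held none of the motifs. RefSeq windows matched 30 of the 44 genes (36 windows of 250 bases). A GC box was in 77.8% of them, against 32.7% of all 32851 windows in the same table, while the TCF/LEF core was in 5.56% against 7.48%, CCAAT in 30.6% against 33.8% and TATAAA in 19.4% against 12.4%. These matches describe letters only.

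Wnt9a and Wnt9b, closely related ligands, both rose. Wnt9a had 109.2, 121.2, 117.0 and 177.0 in WT and 239.0, 175.2, 245.1 and 350.5 in KO, a log2 fold change of 0.92 (SE 0.23, adjusted p = 0.0134 by limma). WT replicate 4 and KO replicate 2 met at the border between the groups. Wnt9b was near the lower limit of the test, at 4.6, 5.8, 7.4 and 9.4 in WT and 16.1, 40.2, 16.1 and 15.8 in KO. Its groups did not overlap and its log2 fold change was 1.48 (SE 0.39, adjusted p = 0.0154 by limma), with KO replicate 2 well above the other KO libraries. Wnt9b entered the test through the 4 KO libraries alone, since all WT libraries were under 10, so its rise is no support for a direction among the ligands. Wnt9b lies 24328 bases from Wnt3 on chromosome 11, on the opposite strand. Wnt3 was too low to be tested and had 27 reads in WT, at least 1 in each library, and 0 reads in KO. Taking 3 reads in all KO libraries as the floor, its observed level was 7.84-fold lower in KO. The 95% counting intervals were 17.8 to 39.3 reads in WT and 0 to 3.69 in KO, so the fold could also be smaller. In a fit without a filter on low values Wnt3 had a limma adjusted p of 0.0126. The values of the neighbours Wnt9b and Wnt3 differed between the groups in opposite directions. Because Wnt9b entered through KO libraries alone and 15 of the 27 Wnt3 reads were in WT replicate 3, this gives no result for the pair. The other pairs of Wnt neighbours were Wnt10b with Wnt1, 11706 bases apart on chromosome 15, and Wnt6 with Wnt10a, 6193 bases apart on chromosome 1. Wnt1 had 4 reads in WT and 9 in KO, and Wnt10a 21 and 9, both too few to be tested.

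Wnt4, a ligand known from the kidney and the reproductive tract, was the single one of the 12 tested ligands that fell (GRCm38 chromosome 4, 137277489 to 137299726, plus strand). It had 77.1, 91.4, 102.1 and 143.3 in WT and 46.0, 33.3, 24.7 and 9.7 in KO. No KO library reached a WT library, and the means of 103 ± 28.5 and 28.4 ± 15.2 (SD, n = 4) gave a log2 fold change of -1.98 (SE 0.44, adjusted p = 0.00807 by limma). The summed level of the epididymis and vas deferens genes separated the groups in the same direction. Of these genes 5 of 7 tested were lower in KO. Those 5 entered the test through their WT libraries, so that share is no support for a direction. Others of the list were highest in KO replicate 3: Lcn5 at 378.4, Lcn8 at 107.5, Lcn9 at 55.9, Rnase10 at 69.9 and Cst8 at 20.4. The part of that tissue was not tested. Wnt6 had 51.4, 69.2, 69.6 and 56.2 in WT and 75.8, 30.8, 14.0 and 14.6 in KO. KO replicate 1 lay above all WT libraries and the other KO libraries below them, and Wnt6 did not pass (log2 fold change -1.18, SE 0.50, limma adjusted p = 0.0907). Without KO replicate 1 its limma adjusted p was 0.0075. That was the only 1 of 19 alternative fits (described below) in which Wnt6 passed.

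Wnt5a, which signals mainly outside the beta-catenin branch and is known as a product of inflamed fat, had 296.3, 802.0, 521.7 and 663.9 in WT and 819.3, 893.0, 730.9 and 998.1 in KO. KO values were the higher ones except that WT replicate 2 exceeded KO replicate 3. The log2 fold change of 0.67 did not pass (SE 0.28, adjusted p = 0.0848 by limma, and 0.0335 without WT replicate 2). Wnt5a passed in 2 of 19 alternative fits. Wnt2 had 13.5 to 21.4 in WT and 6.9 to 8.5 in 3 KO libraries but 31.6 in KO replicate 2, and did not pass (limma adjusted p = 0.291). Leaving out KO replicate 2 gave Wnt2 a log2 fold change of -1.14 and a limma adjusted p of 0.0194. That was the only 1 of 18 alternative fits in which Wnt2 passed. Wnt8b, at 10.1 to 67.3 in WT and 8.5 to 35.0 in KO, did not pass either (limma adjusted p = 0.409).

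Wnt2b, a ligand of the beta-catenin branch, did not differ between groups beyond its spread (log2 fold change 0.38, SE 0.70, limma adjusted p = 0.683) but varied widely within them. Its normalized counts were 224.7, 124.1, 286.8 and 486.9 in WT and 219.5, 115.4, 373.0 and 1197.0 in KO. The summed level of 8 mesothelial markers, genes of the cell layer that covers this fat pad, was 2992, 1834, 4872 and 9327 in the same WT libraries and 4122, 2398, 6801 and 16604 in the KO libraries. Within each group the libraries therefore stood in the same order for Wnt2b and for the mesothelial sum, with replicate 2 lowest and replicate 4 highest in both. This match was noticed after the values were seen, and its source was not tested.

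Per kilobase of exon, Wnt5a was the highest ligand in WT, with a mean level of 73.0 ± 27.6 (SD, n = 4), followed by Wnt2b at 66.8 ± 36.4, Wnt9a at 39.4 ± 9.31, Wnt5b at 35.7 ± 8.43, Wnt11 at 31.6 ± 6.69, Wnt6 at 28.1 ± 4.22 and Wnt4 at 24.7 ± 6.79. Neighbours in that order did not differ beyond their spread. In KO the order was Wnt2b at 113 ± 117, Wnt5a at 109.98 ± 14.5, Wnt11 at 84.6 ± 19.6, Wnt5b at 77.8 ± 8.69 and Wnt9a at 75.8 ± 21.8, whereas Wnt6 was at 15.4 ± 13.3 and Wnt4 at 6.78 ± 3.63. The first place of Wnt2b in KO rests on KO replicate 4, where it held 38.85% of the summed ligand level per kilobase against 17.4% for Wnt5a. In KO replicates 1 to 3 Wnt5a held more, at 22.4%, 24.7% and 21.5% against 11.2%, 5.94% and 20.4% for Wnt2b. Wnt10b remained a minor ligand on this per-length scale, at 5.99 ± 1.99 in WT and 20.0 ± 7.45 in KO. Wnt4 held 6.49% to 7.78% of the summed ligand level per kilobase in WT and 0.315% to 2.35% in KO.

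Among the receptors, 2 of 10 tested rose and 2 fell. Fzd4, the receptor of endothelium and other tissues that also binds Norrin, was the most abundant Frizzled gene per kilobase in every library (GRCm38 chromosome 7, 89404355 to 89413134, plus strand). It had 5414.9, 10436.1, 6999.4 and 9052.3 normalized counts in WT and 18017.1, 18488.9, 16391.1 and 16402.4 in KO. The KO libraries lay close together and all above WT, and the means of 7976 ± 2215 and 17325 ± 1089 (SD, n = 4) gave a log2 fold change of 1.16 (SE 0.19, adjusted p = 0.00225 by limma). Fzd7, a receptor of stem and progenitor cells in several tissues, went the other way. It had 1669.5, 1102.1, 1612.5 and 1257.5 in WT and 514.8, 594.8, 529.9 and 817.4 in KO, a log2 fold change of -1.20 (SE 0.18, adjusted p = 0.00171 by limma), and its groups did not overlap. Fzd5 had 582.5, 716.4, 619.2 and 362.4 in WT and 318.3, 374.3, 319.2 and 280.1 in KO. It fell by 0.78 on the log2 scale (SE 0.20, adjusted p = 0.0154 by limma), although WT replicate 4 lay below KO replicate 2. Fzd5 shares 1233 exonic bases with the gene model Gm38058 on the other strand, Wnt11 shares 364 with the pseudogene Gm8398 and Tcf7l1 shares 179 with the antisense gene Gm15401. The strand setting of the count is not stated, so reads of the shared bases cannot be told apart. Gm15401 itself had means of 1.196 in WT and 2.215 in KO, against 788 and 1183 for Tcf7l1. Gm38058 and Gm8398 have no value here.

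Fzd4 held a larger share of the Frizzled level in KO than in WT. Of the summed Frizzled level per kilobase of exon, Fzd4 held 40.05%, 61.3%, 47.15% and 55.0% in WT replicates 1 to 4 and 78.2%, 78.4%, 77.8% and 71.7% in KO replicates 1 to 4. No WT library reached a KO library in this share. Fzd7 held 9.60% to 18.3% in WT and 3.31% to 5.30% in KO, and Fzd1 held 12.4% to 27.96% and 8.01% to 12.9%. The summed level per kilobase itself was 2012 to 2534 (WT) and 3137 to 3509 (KO), so that the shares rest on a larger total in KO. Endothelial markers were also higher in KO, their sums being 14873 to 31148 (WT) and 35988 to 39481 (KO), and adipocyte markers as given above; the part of either in the level of Fzd4 was not tested.

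**Figure D2:**
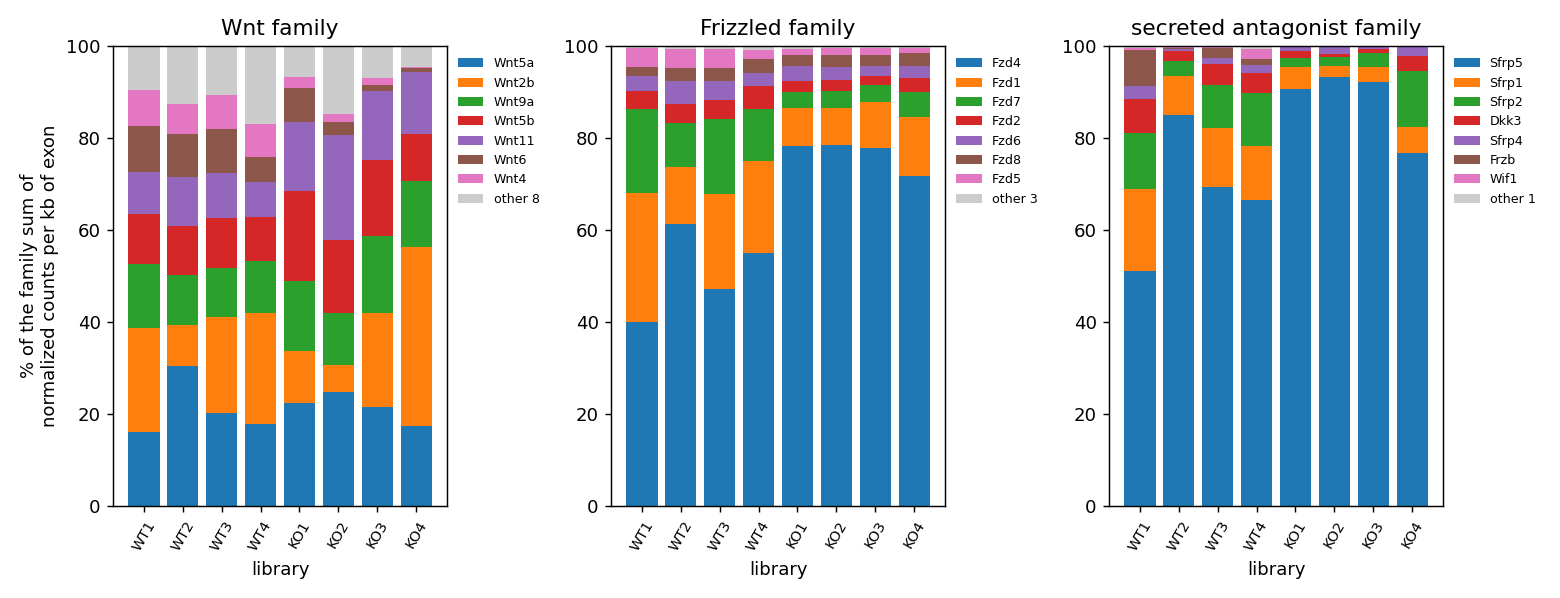
Stacked bars give each gene's share (percent) of its family's summed normalized count per kilobase of exon, for each of the 8 libraries. Fzd4 takes 40.05% to 61.3% of the Frizzled level in WT and 71.7% to 78.4% in KO, and Sfrp5 takes 51.1% to 85.05% of the antagonist level in WT and 76.8% to 93.2% in KO.

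The other Frizzled genes did not pass. Fzd1 had 2361.2, 1322.3, 1924.4 and 2046.8 in WT and 1212.3, 1179.3, 1315.7 and 1841.0 in KO (log2 fold change -0.46, SE 0.20, limma adjusted p = 0.102). WT replicate 2 and KO replicate 4 stood among the libraries of the other group, and without one or the other the limma adjusted p was 0.021 or 0.04. Fzd8 was at 242.2 to 452.0 in WT and at 455.8 to 560.3 in KO, with no overlap. Its log2 fold change of 0.48 missed the threshold (SE 0.19, adjusted p = 0.0726 by limma, and 0.045 without WT replicate 2). Fzd1 and Fzd8 each passed in 3 of 19 alternative fits. Fzd2, Fzd3 and Fzd6 had log2 fold changes of -0.22, 0.14 and 0.10 with limma adjusted p values of 0.402, 0.674 and 0.729, and each changed sign when WT replicate 1 (Fzd3 and Fzd6) or WT replicate 4 with KO replicate 3 (Fzd2) was left out. Fzd9 and Fzd10 had 17 and 42 reads in WT and 20 and 26 in KO and were not tested.

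Lrp5 and Lrp6 are large single-pass co-receptors that pair with Frizzled. Lrp5 had 2478.6, 3235.1, 2913.0 and 3408.2 in WT and 4286.2, 4680.3, 4034.1 and 4308.9 in KO, so the groups did not overlap. It rose by 0.53 on the log2 scale (SE 0.11, adjusted p = 0.00552 by limma). Lrp6 had 3847.2 to 4305.2 in WT and 4047.0 to 4348.3 in KO, and its log2 fold change of 0.06 did not pass (SE 0.07, adjusted p = 0.5 by limma), with a 95% interval of -0.10 to 0.22. The difference between the 2 changes was not tested. Per kilobase, the WT levels of Lrp5 and Lrp6 lay within their spread, at 309 ± 42.0 and 295 ± 15.0 (SD, n = 4), while in KO they were 444 ± 27.3 and 308 ± 10.1.

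Of the Lgr receptors, Lgr4 alone was measured well. It had 752.2, 1820.4, 1217.0 and 1064.6 in WT and 1792.6, 1740.7, 1901.5 and 1250.3 in KO, a log2 fold change of 0.52 which missed the threshold (SE 0.26, adjusted p = 0.137 by limma). WT replicate 2 lay among the KO libraries, and without it the limma adjusted p was 0.0245. Lgr4 passed in 2 of 19 alternative fits. Lgr5, a marker of epithelial stem cells, had 118 reads in WT, almost all in WT replicate 4 (96.4 normalized counts against 0.9 to 10.2 in the other WT libraries), and 4 reads in KO. Lgr6 had 16 and 11 reads.

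**Figure D3:**
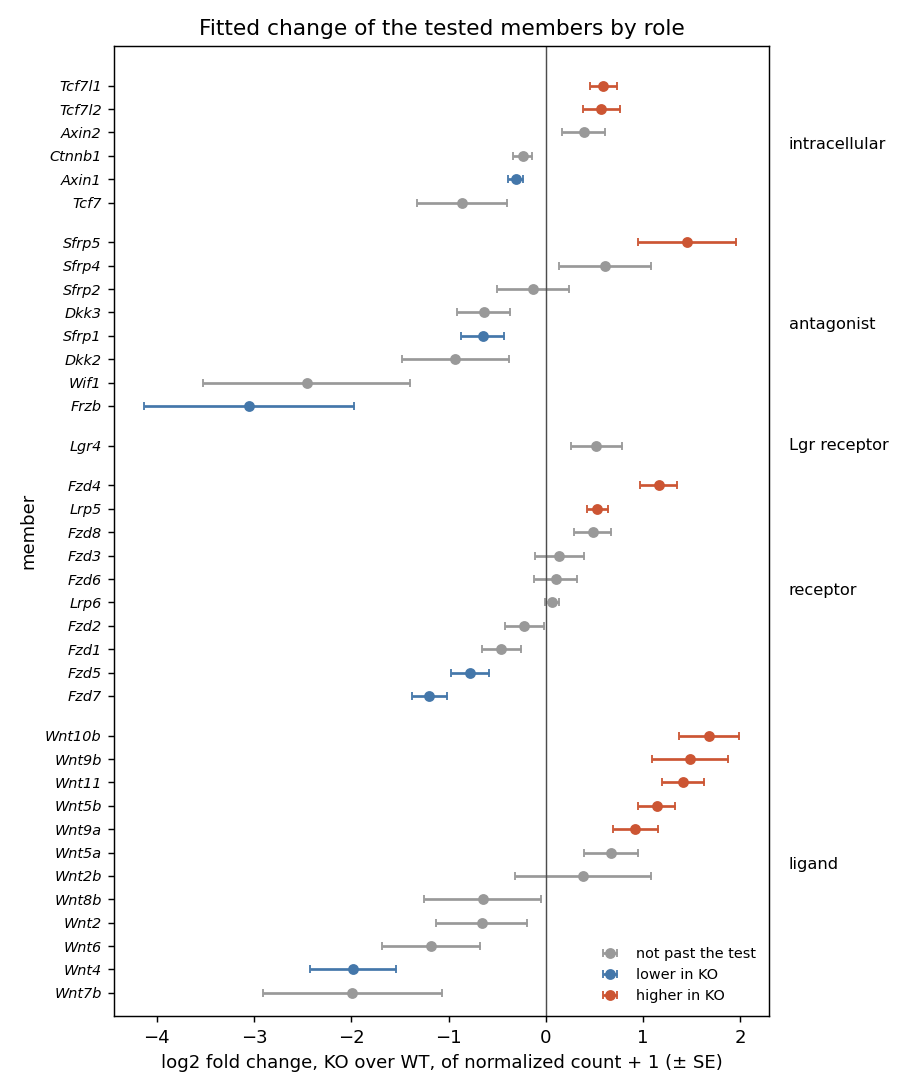
Log2 fold change of KO over WT, of the normalized count + 1, with its standard error as the bar, for the 37 tested genes grouped by role. Orange genes were higher in KO, blue genes lower, and grey genes did not pass the test; each group of genes except the single Lgr gene holds changes in both directions.

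Among the secreted antagonists, 1 of 8 rose and 2 fell, and none of these 3 calls held under every alternative. Sfrp5, the antagonist known as an adipocyte product, was by far the most abundant of them per kilobase in every library. It had 1650.3, 6890.4, 3591.6 and 4372.6 in WT and 13082.8, 16826.0, 9957.8 and 4527.2 in KO. KO replicate 4 lay inside the WT range and the other KO libraries above it, and the log2 fold change was 1.45 (SE 0.50, adjusted p = 0.0475 by limma). With 1 library left out at a time, the limma adjusted p of Sfrp5 was 0.105 without WT replicate 1, 0.0936 without WT replicate 3, 0.0661 without WT replicate 4, 0.106 without KO replicate 1, 0.11 without KO replicate 2 and 0.0928 without KO replicate 3. It was 0.0272 without WT replicate 2 and 0.0186 without KO replicate 4. The WT libraries stood in the same order for Sfrp5 and for the adipocyte marker sum, with WT replicate 1 lowest in both. The KO libraries stood in the reverse order, with KO replicate 4 lowest for Sfrp5 and highest for the sum. The part of adipocytes in the level of Sfrp5 was not tested.

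Frzb, a Frizzled-related Wnt binder also called Sfrp3, had 423.8, 16.3, 189.4 and 123.6 in WT and 44.8, 15.4, 2.1 and 14.6 in KO. WT replicate 2 stood among the KO libraries. Frzb had the largest fitted change of the 37 genes, a log2 fold change of -3.05, but with a wide error (SE 1.08, adjusted p = 0.0496 by limma). Its call ended, with limma adjusted p values of 0.124, 0.113, 0.0871, 0.081, 0.118 and 0.0876, without WT replicates 1, 3 and 4 and KO replicates 2, 3 and 4 in turn. Frzb kept its call without WT replicate 2 (0.0103) and KO replicate 1 (0.0375). Sfrp1 had 1328.3, 1570.4, 1546.5 and 1779.0 in WT and 1583.5, 991.3, 791.1 and 765.2 in KO. KO replicate 1 lay inside the WT range. It fell by 0.65 on the log2 scale (SE 0.22, adjusted p = 0.0455 by limma), and the limma adjusted p was 0.056, 0.0828, 0.0899 and 0.0971 without WT replicates 1 to 4 in turn and 0.081, 0.114 and 0.108 without KO replicates 2 to 4. Without KO replicate 1 the log2 fold change of Sfrp1 was -0.87 and the limma adjusted p 0.00339. In edgeR's test Sfrp1 had an adjusted p of 0.0782.

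Wif1, which binds Wnts directly, was high in a single library. It had 22.9, 26.9, 16.7 and 190.1 in WT and 13.8, 16.2, 8.6 and 0.0 in KO. The groups just failed to overlap, yet the log2 fold change of -2.46 did not pass (SE 1.06, adjusted p = 0.0934 by limma). Dkk3, a divergent member of its family, had 414.6, 313.5, 418.7 and 485.0 in WT and 366.6, 196.5, 176.3 and 350.5 in KO. It did not pass (log2 fold change -0.64, SE 0.27, limma adjusted p = 0.0845, and 0.0451 without KO replicate 1). Dkk3 passed in 2 of 19 alternative fits. Dkk2, an antagonist of Lrp co-receptors, had 22.9 to 86.1 in WT and 9.7 to 41.9 in KO and did not pass (limma adjusted p = 0.2). Sfrp2 (293.3 to 863.3 in WT and 336.7 to 804.1 in KO) and Sfrp4 (97.1 to 279.0 and 131.1 to 581.9) overlapped broadly, with limma adjusted p values of 0.796 and 0.32.

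Several Wnt genes were high in WT replicate 4 alone. Wnt7b had 238.8 there, 14.7 to 24.0 in the other WT libraries and 2.6 to 24.3 in KO, and did not pass (log2 fold change -1.99, SE 0.92, limma adjusted p = 0.113). Wif1 and Lgr5 shared this pattern. In the same library the 12 genes of the epididymis and vas deferens went both ways, with 3 above and 7 below all other WT libraries. Akr1b7, a gene of the vas deferens, was at 80635.9 against 188.1 to 211.6, whereas Adam7 was at 0.9 against 7804.6 to 19828.7 and Serpina16 at 57.1 against 6607.5 to 12772.9. The smooth muscle myosin Myh11 was at 25665.5 against 2038.3 to 3574.5, and the Wnt antagonist Sost at 754.7 against 0.0 to 1.9; Akr1b7, Adam7, Serpina16, Myh11 and Sost were picked after their values were seen. The part of other tissue in the Wnt7b, Wif1 and Lgr5 values was not tested.

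**Figure D4:**
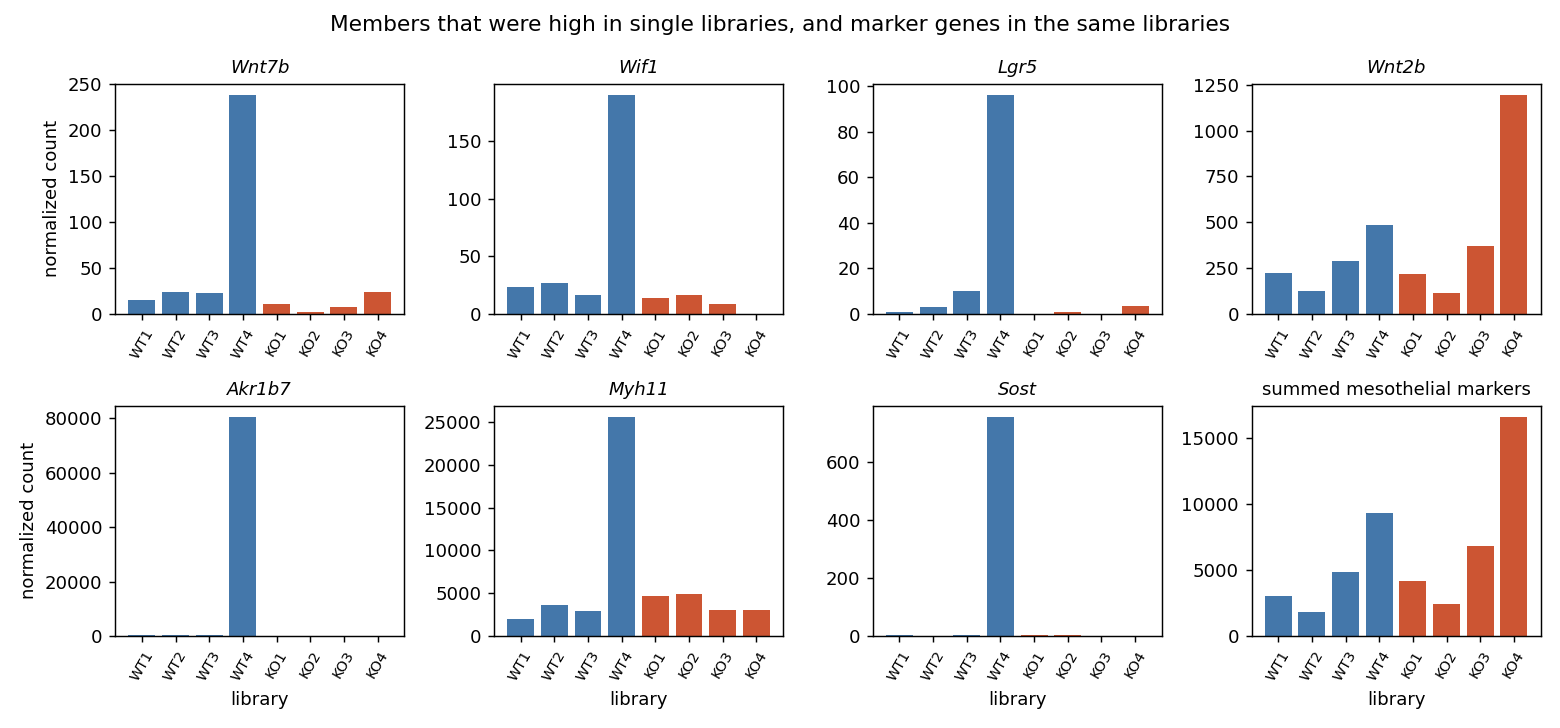
Normalized counts per library (bars, WT blue and KO orange) of Wnt7b, Wif1, Lgr5 and Wnt2b above, and of Akr1b7, Myh11, Sost and the sum of 8 mesothelial markers below. WT replicate 4 stands out at 238.8 for Wnt7b, 190.1 for Wif1 and 96.4 for Lgr5, and Wnt2b follows the mesothelial sum with its maximum of 1197.0 in KO replicate 4.

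Inside the cell, 2 of 6 tested genes rose and 1 fell. Ctnnb1, which encodes beta-catenin, had 12605.8, 12067.1, 12750.2 and 11174.1 in WT and 10615.6, 11750.8, 9773.0 and 9221.8 in KO. KO replicate 2 lay inside the WT range and the other KO libraries below it. The log2 fold change of -0.24 missed the threshold (SE 0.10, adjusted p = 0.0937 by limma, and 0.0455 without KO replicate 2). Ctnnb1 passed in 3 of 19 alternative fits. Axin1, the scaffold of the destruction complex, had 1356.7 to 1571.4 in WT and 1100.9 to 1241.9 in KO, with no overlap. It fell by 0.31 on the log2 scale (SE 0.08, adjusted p = 0.0114 by limma). Axin2, its relative that is itself switched on by beta-catenin and is widely read as a measure of the pathway, had 327.5, 603.0, 469.7 and 356.7 in WT and 605.6, 675.1, 406.3 and 589.4 in KO. KO replicates 3 and 4 lay within the WT range, and the log2 fold change of 0.39 did not pass (SE 0.22, adjusted p = 0.192 by limma), with a 95% interval of -0.12 to 0.90. Axin2 shares 209 exonic bases with the antisense gene Gm11670, and Ctnnb1 shares 759 with Ulk4. Gm11670 had means of 21.76 in WT and 47.9 in KO, against 439 and 569 for Axin2. Ulk4 had 69.25 and 85.2, against 12149 and 10340 for Ctnnb1. The part of Gm11670 in the Axin2 values was not tested.

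Of the 3 Tcf genes, DNA-binding partners of beta-catenin, Tcf7l1 and Tcf7l2 rose and Tcf7 did not pass. Tcf7l1, which acts mainly as a repressor, had 663.2, 815.5, 712.9 and 961.6 in WT and 1051.4, 1036.6, 1281.3 and 1363.1 in KO. The groups were apart, with a log2 fold change of 0.59 (SE 0.14, adjusted p = 0.0105 by limma). Tcf7l2, the family member linked to diabetes risk in people, had 344.9, 479.9, 424.2 and 491.6 in WT and 719.4, 446.1, 642.8 and 807.7 in KO. It rose by 0.57 (SE 0.19, adjusted p = 0.045 by limma), with KO replicate 2 inside the WT range. The limma adjusted p of Tcf7l2 was 0.106, 0.0559 and 0.0931 without WT replicates 1 to 3 in turn, 0.105 without KO replicate 1, 0.0898 without KO replicate 3 and 0.106 without KO replicate 4. It was 0.0495 when WT replicate 4 was left out and 0.00716 when KO replicate 2 was. Tcf7, known from T cells, had 244.9, 151.9, 151.3 and 437.3 in WT and 119.5, 70.9, 264.4 and 100.7 in KO. It did not pass (log2 fold change -0.86, SE 0.46, limma adjusted p = 0.169, and 0.0494 without KO replicate 3). Tcf7 passed in that 1 of 19 alternative fits only. T cell markers summed to 2558 to 4787 (WT) and 608 to 1143 (KO), highest among KO libraries in KO replicate 3, as Tcf7 was, but highest among WT libraries in WT replicate 1, where Tcf7 was highest in WT replicate 4; the part of T cells was not tested.

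Of 84 further pathway genes tested, 18 rose and 14 fell, or 38.1% against the 41.7% of all genes tested (20.2% higher and 21.5% lower), which is also the background of the counts by list that follow. In the list of Wnt secretion and inactivation, which also holds Tspan12, 3 of 5 rose and 0 fell. Wls (log2 fold change -0.02, limma adjusted p = 0.842) and Trabd2b (0.77, limma adjusted p = 0.0637) did not pass. The 3 that rose differ in function, so the count gives no direction for Wnt secretion. Apcdd1, a membrane inhibitor of Wnt signalling, had 733.9, 2324.4, 1363.7 and 1674.1 in WT and 7526.8, 7981.4, 8319.7 and 8028.4 in KO. All KO libraries lay far above WT, with a log2 fold change of 2.50 (SE 0.30, adjusted p = 0.000715 by limma). Tspan12, a partner of Fzd4 in the Norrin receptor, rose by 1.14 (SE 0.20, adjusted p = 0.00318 by limma), and Porcn, the enzyme that attaches the lipid to Wnt proteins, rose by 0.87 (SE 0.20, adjusted p = 0.00904 by limma). The Norrin gene Ndp, looked up after these values were seen, was at 0.0 to 4.7 in all libraries. Of 4 R-spondin and E3 ligase genes 0 passed limma's test and edgeR's, 1 passed DESeq2's, and 2 had an unadjusted p under 0.05 by limma.

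Among co-receptors and further antagonists 4 of 13 rose and 2 fell. Igfbp4 (log2 fold change 1.06), the Wnt receptor Ryk (0.46) and the glypican Gpc4 (1.00) rose, and the Wnt5a receptor Ror1 fell by 0.73. The fall of Ror1 did not hold after quantile normalization (adjusted p = 0.0508 by limma) or when replicate 1, 3 or 4 of WT (0.0628, 0.058 and 0.058) or replicate 1 or 3 of KO (0.0608 and 0.0638) was left out. In the Dishevelled and destruction complex list 4 of 18 rose and 3 fell, with Dact2 at 1.64 and Dact3 at -1.05, both modulators of Dishevelled. Btrc and Apc2 were at 0.29 and 0.54. Leaving out replicate 1 or 3 of WT, or replicate 1 or 3 of KO, took Btrc to limma adjusted p values of 0.053, 0.0676, 0.0529 and 0.0529. Leaving out replicate 1 or 3 of WT, or replicate 2 or 4 of KO, took Apc2 to 0.0582, 0.0637, 0.0592 and 0.0581. Of 15 nuclear partners of beta-catenin 2 rose and 3 fell, among them the co-activator Pygo1 (1.02), the deacetylase Hdac1 (0.30), the co-repressor Tle4 (-0.75) and the acetyltransferase Ep300 (-0.37).

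Genes known as targets of beta-catenin fell in 4 of 14 and rose in 1. Cd44, an adhesion receptor also abundant on leukocytes, had 8155.0, 4275.6, 5165.1 and 3709.7 in WT and 764.2, 1607.4, 966.3 and 551.8 in KO, a log2 fold change of -2.50 (SE 0.35, adjusted p = 0.00116 by limma). The matricellular gene Ccn4 fell by 1.83, and the growth genes Myc and Ccnd1 each had a log2 fold change of -0.90. Bmp4, a factor that commits precursors to the fat lineage, rose by 0.99 and was named after its value was seen. The macrophage marker sum was lower in KO too, and its part in these changes was not tested. In the planar polarity and calcium list 4 of 18 rose and 2 fell. Celsr2, an atypical cadherin, rose by 1.65 and Vangl1 by 0.52, while the calcium-regulated factors Nfatc2 and Nfatc1 were at -1.01 and -0.26. The fall of Nfatc1 did not hold after quantile normalization (adjusted p = 0.0515 by limma), or when KO replicate 1 was left out (0.0561).

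**Figure D5:**
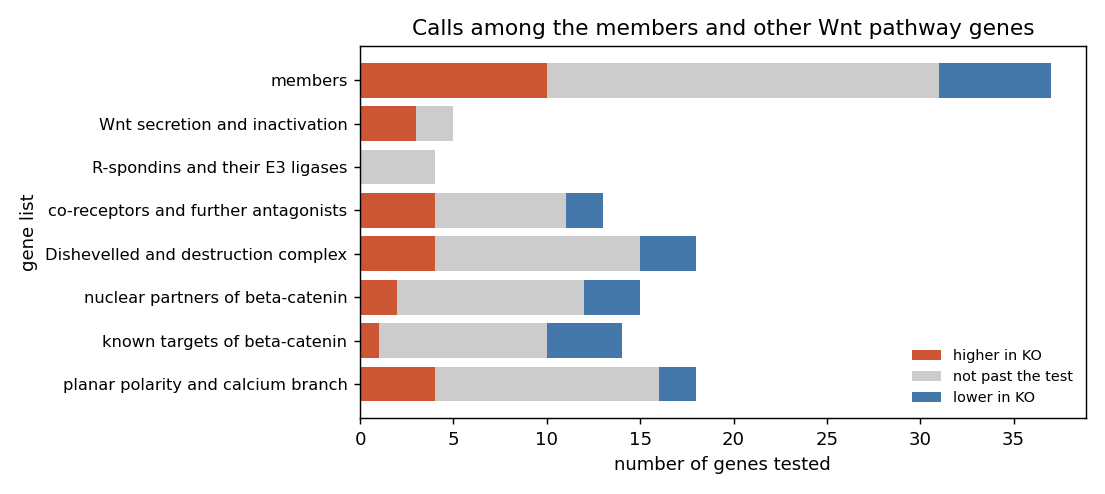
Number of genes tested (horizontal axis) in the Wnt gene group described here (members) and in 7 further pathway lists, divided into genes higher in KO (orange), not past the test (grey) and lower in KO (blue). The secretion and inactivation list, which also holds Tspan12, has 3 higher and 0 lower genes of 5. The list of beta-catenin targets has 1 higher and 4 lower of 14.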

How the data were processed

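TruSeq libraries were made from total RNA, per the labels. Values are a signal the authors deposited, gene counts divided by a size factor of each library. The submitters' processing notes name the build GRCm38.p6 and, as tools, DESeq2 and STAR 2.7.7, with no role given; the counter, strand setting and annotation are not stated. Dividing by each library's smallest step gave whole reads for 100.0% of values (tolerance 0.01 of a read); edgeR called 7435 genes on them. Of the identifiers, 24802 of 24821 matched GENCODE M21 without version.

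Group and replicate came from the labels. The test was limma 3.58.1 (R 4.3.3; trend, robust) on log2(normalized count + 1), which understates changes of low genes, with group alone. Genes with at least 10 in at least 4 of 8 libraries entered, with Benjamini-Hochberg adjustment over all of them. Alternatives were edgeR 4.0.16, DESeq2 1.42.0, TMM and quantile scaling, pseudocounts of 0.5 and 5, no filter or a filter of 50, library weights, the replicate number as a block, and libraries left out. Levels per kilobase used the union of M21 exons. The code was tested on simulated data, where it called 4% of genes changed 1.5-fold, 28% at 2-fold, 72% at 4-fold and 88% at 8-fold. In that simulation 17340 of 17536 genes were unchanged, unlike in these data, so those shares may not carry over. Genes that did not pass cannot be read as unchanged. Every member is named, and of each pathway list up to 4 genes past the test with the smallest p. Wls and Trabd2b, named besides, are the tested genes of their list that did not pass. The members and lists were chosen with earlier results of these data known. Counting intervals and floors cover counting error only.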

Additional observations from a re-analysis of the deposited data

Results flagged for a closer look

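Over 80 groups of 4 libraries (a Wnt gene in WT or in KO, with at least 10 reads in its highest library), 5 had 1 library standing apart by Dixon's criterion at 95%, where chance gives about 1 in 20, or 4. Of these, 3 were in WT replicate 4: Wnt7b at 238.8, Wif1 at 190.1 and Lgr5 at 96.4. The other two were in KO replicate 2: Wnt9b at 40.2 and Wnt2 at 31.6. Wnt9b was called with and without KO replicate 2 and WT replicate 4.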

How the results depend on the processing

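Across the 19 alternatives (1 at a time), 12 of the 16 called Wnt genes passed in every fit that could test them. Sfrp1, Sfrp5, Frzb and Tcf7l2 did not, and of the 21 that did not pass, 10 passed in some fit. For genes that did not pass, the adjusted p values given above with a library left out are those under 0.05. They leave out a library for its value and are no evidence of a difference. The number of Wnt genes higher in KO ran from 8 to 13 and lower from 4 to 8, all within 1.5 times the 10 and 6 reported. Over all genes, 5641 (WT replicate 3 left out) to 9767 (library weights) passed, against 7423. With both WT replicate 4 and KO replicate 3 left out, 8 Wnt genes were higher and 4 lower, and Ep300 had an adjusted p of 0.0695 by limma. Quantile normalization shifted that median over all genes by 0.105. Some log2 fold changes turned sign: Fzd2 was at 0.03 with both those libraries left out, and Sfrp2 at 0.22. Wnt2b was at -0.14 with library weights. With single libraries left out, Fzd3 ran from -0.09 to 0.28, Fzd6 from -0.02 to 0.28, Sfrp2 from -0.40 to 0.13 and Wnt2b from -0.24 to 0.88. None of these 5 genes passed in any fit, and the cause was not tested. Same-numbered libraries had deviations from their group mean correlated at -0.143, 0.051, -0.041 and 0.172, and those of other numbers at -0.237 to 0.178. Not every library matched its own number best. Such deviations scatter around 0 by construction, so these values cannot decide whether the replicate numbers pair the samples. With the replicate number as a block 6266 genes passed, 2989 higher and 3277 lower, and 8 and 7 Wnt genes. The block took the adjusted p by limma to 0.0929 for Sfrp1, 0.0546 for Sfrp5, 0.073 for Tcf7l2, 0.0656 for Ror1, 0.067 for Btrc and 0.0747 for Nfatc1, which then did not pass, and to 0.0349 for Wnt7b and 0.0461 for Dkk3, which then did. Depth limits the 7 genes too low to be tested.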

Other observations

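Other genes of the pathway lists too low to be tested also stood apart in single libraries. The R-spondin gene Rspo2 was at 36.5 in WT replicate 4 and at 0.0 to 2.9 in the other WT libraries, and Sostdc1, a Wnt and BMP antagonist, at 30.9 and 1.9 to 4.6. Notum, which removes the lipid from Wnt proteins, had 66.6 in KO replicate 1 and 1.1 to 14.5 in the other KO libraries. Rnf43, an E3 ligase that removes Frizzled from the surface, did not pass (limma adjusted p = 0.0556) and had 144.8, 51.3, 4.3 and 18.2 in KO replicates 1 to 4 against 117.0 to 209.8 in WT.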
